A study of Mus musculus with 2 samples.

Results

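The Ms4a genes encode small membrane proteins that cross the plasma membrane several times, and most lie side by side in one chromosomal cluster that arose by gene duplication. They are known as cell type markers of blood and immune cells. Ms4a1 encodes CD20, the surface protein of B cells, Ms4a2 encodes the beta chain of the high-affinity IgE receptor of mast cells and basophils, and Ms4a4b, first called Chandra, is a T cell member whose protein was reported to associate with the costimulatory receptor GITR and to modulate T cell activation. The 7 members described here, Ms4a1, Ms4a4b, Ms4a4c, Ms4a6b, Ms4a6c, Ms4a6d and Ms4a7, were chosen by name with earlier results of these same arrays known, among them the low ratio of Ms4a6c. Their ratios are therefore a description and no test of anything. They are 7 of 18193 genes on the array, and every probe set whose single gene symbol was one of them was taken, 15 in all, with 2 to 3 per gene.

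RNA was measured in naive gamma/delta T cells (γδ cells), labelled CD44-, and in naive CD8+ alpha/beta T cells (αβ CD8 cells). Both were purified by negative selection from lymph nodes of C57BL/6 mice, with no genetic or drug treatment given in the labels, and each was hybridised to 1 expression array. The sex, age and number of mice were not given in the sources used here, and a cell preparation purified by negative selection keeps any cell that the antibodies missed. A single array stands for each group, so no SD or p-value can be had, and each comparison is between these 2 preparations.

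Values are MAS5 signals in scaled units. Low signals carry little order, so a floor of 243 was set, the higher of the medians of the 2 arrays (243 for γδ and 242 for αβ CD8). A signal under it was raised to it, so that a probe set under the floor on 1 array gives a bound ("at least") and one under it on both arrays gives no ratio. A log2 ratio is γδ over αβ CD8, and a difference of 2-fold or more was called. Probe sets of the same gene differed from each other with a pooled SD of 0.50 in log2 ratio over 3317 genes, which is no replicate error but the only spread at hand. The defining markers followed the labels. Of 12 γδ marker symbols listed, 4 were measured. All 4 were at least 2-fold higher in γδ cells, by bounds of 4.47-fold (Sox13) to 51.5-fold (Trgv4), with Cd163l1 at 36.9-fold and Trgv1 at 38.8-fold between them. A further probe set of Trgv4 was under the floor on both arrays (20.0 in γδ and 49.1 in αβ CD8 cells). With probe sets ending in _x_at, _s_at and _a_at left out, 1 γδ marker was called higher. Both measured CD8 chains were lower in γδ cells (Cd8a and Cd8b1), and the 8 measured T cell markers lay above the floor on both arrays, with Cd3g and Thy1 past 2-fold higher in γδ cells, Cd3e (0.80) and Cd3d (-0.03) short of it and a median log2 ratio of 0.44. Over all genes with a ratio the median was 0.03. By brightest probe sets 5 of the 8 markers were above 0 and 3 below, namely Cd3d, Cd247 (-0.04) and Cd6 (-0.26). The other probe sets of Cd247 were also below 0, at -0.26, -0.62 and -1.13, the last 2.19-fold lower in γδ cells. As a sign of RNA quality, the 3′ to 5′ signal ratio of actin was 6.99 in γδ and 3.12 in αβ CD8 cells. That of Gapdh was 3.06 in γδ and 3.24 in αβ CD8 cells, and that of the transferrin receptor was 3.97 and 4.47. The part of RNA quality in the ratios below was not tested.

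The members that the results turn on lie close together on mouse chromosome 19, and some of their promoters are near copies of each other. RefSeq (GRCm38.p6) gives a promoter of 300 bases, 250 before and 50 after an annotated transcript start, for 5 of the 7 members. Over the 171 pairs of Ms4a promoters the longest exact run shared by a pair had a median of 8 bases, and in 2 pairs it reached 15 or more. One is Ms4a6c and Ms4a6b, whose promoters share a run of 48 bases and were 89.4% identical over 216 aligned bases. The other is Ms4a4c and Ms4a4b, with a run of 20 bases and 89.8% identity over 177 aligned bases. Neither run occurs in any other of 32851 RefSeq promoters on either strand. The 4 promoters are shown because they let the paired genes be compared base by base. All are on the plus strand, 5′ to 3′, and capitals mark the run that the pair shares. Their positions are chr19:11469118-11469417 (Ms4a6c), chr19:11518309-11518608 (Ms4a6b), chr19:11407411-11407710 (Ms4a4c) and chr19:11443308-11443607 (Ms4a4b).
Ms4a6c: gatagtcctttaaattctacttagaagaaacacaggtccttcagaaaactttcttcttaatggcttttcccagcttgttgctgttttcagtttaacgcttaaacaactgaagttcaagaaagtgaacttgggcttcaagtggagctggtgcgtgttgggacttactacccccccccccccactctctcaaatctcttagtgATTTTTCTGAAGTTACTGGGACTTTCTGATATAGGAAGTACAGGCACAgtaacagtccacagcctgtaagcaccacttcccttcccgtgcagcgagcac
Ms4a6b: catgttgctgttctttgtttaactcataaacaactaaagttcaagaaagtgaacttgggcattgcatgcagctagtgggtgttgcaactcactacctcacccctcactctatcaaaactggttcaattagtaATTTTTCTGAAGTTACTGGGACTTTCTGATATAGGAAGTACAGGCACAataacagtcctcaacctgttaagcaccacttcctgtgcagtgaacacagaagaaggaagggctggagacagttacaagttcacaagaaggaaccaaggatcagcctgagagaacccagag
Ms4a4c: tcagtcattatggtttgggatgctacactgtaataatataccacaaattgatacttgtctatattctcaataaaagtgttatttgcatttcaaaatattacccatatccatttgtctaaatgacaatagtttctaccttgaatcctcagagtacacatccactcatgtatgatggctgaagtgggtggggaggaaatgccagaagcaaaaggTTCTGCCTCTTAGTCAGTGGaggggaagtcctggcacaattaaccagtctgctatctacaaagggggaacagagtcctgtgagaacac
Ms4a4b: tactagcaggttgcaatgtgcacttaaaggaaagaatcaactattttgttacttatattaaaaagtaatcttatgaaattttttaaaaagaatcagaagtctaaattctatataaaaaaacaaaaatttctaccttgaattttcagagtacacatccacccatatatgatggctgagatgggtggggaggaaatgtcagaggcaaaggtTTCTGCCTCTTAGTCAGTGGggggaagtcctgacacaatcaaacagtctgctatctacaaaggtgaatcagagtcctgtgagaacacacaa

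Counted from the 5′ end, the run occupies bases 202 to 249 of the Ms4a6c promoter, just before the annotated start, and bases 133 to 180 of the Ms4a6b promoter. In the Ms4a4c and Ms4a4b promoters it occupies bases 213 to 232 and 210 to 229. A search on both strands found the letters AGGAAGT, a form bound by Ets family factors, once in the Ms4a6c promoter and 2 times in that of Ms4a6b, and not in the windows of Ms4a4c, Ms4a4b or Ms4a7. They occur in 9.35% of all promoters, and 1 match in each of these promoters lies inside the shared run. The letters TGNGGT, with N for any base, are a looser pattern than the one that Runx factors bind. They occurred once each in the windows of Ms4a4c, Ms4a6b and 1 of the 2 listed starts of Ms4a7. They were in 45.8% of all promoters, and not every match is a Runx sequence. AGATAA (11.2% of all promoters) and TTCNNNGAA (8.30%), which are bound by GATA and STAT factors, were in none of the members' windows. No matches of different motifs overlapped. The motifs, the pairs shown and the minimum of 15 bases were chosen after the sequences were seen. A match is a description of the letters and not a site of binding.

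Ms4a6c, a gene known from mouse monocytes, was lower in γδ cells on both of its probe sets. The brighter one (1457725_at) had a signal of 1309 on the γδ array and 6648 on the αβ CD8 array, which is 5.08-fold lower in γδ cells (log2 ratio -2.34). The dimmer one (1450234_at) read 367 in γδ and 799 in αβ CD8 cells, 2.18-fold lower (log2 ratio -1.12). In such preparations, fewer cells with the transcript and less of it per cell cannot be told apart. Both probe sets point the same way, and they differ from each other by 1.22 in log2 ratio, so the direction is shared and the size is not. Of the 11914 genes with a ratio, 11 had a log2 ratio as low as that of Ms4a6c or lower, itself included. Of these 11914, 3122 enter as bounds whose size is cut by the floor, so this rank depends on it. The 3 genes nearest to Ms4a6c by the distance between their pairs of log2 signals over the 2 arrays were Bach2, a transcriptional repressor of naive lymphocytes (distance 0.22), Klrd1, which encodes the NK receptor chain CD94 (0.23), and Nr1d2, a nuclear receptor of the circadian clock (0.28). With 2 arrays this likeness rests on 2 values per gene, and signals of different probe sets are not on one scale.

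Among the 13 Ms4a probe sets with a ratio, 2 were at least 2-fold lower in γδ cells, both of Ms4a6c, and 0 were at least 2-fold higher. Over all 20297 probe sets with 1 symbol and a ratio, 4.37% were at least 2-fold lower and 5.2% at least 2-fold higher. The median log2 ratio was -0.12 over the Ms4a probe sets and 0.01 over all. By the brightest probe set of each gene, 1 of the 7 members was at least 2-fold lower and 0 higher, against 3.93% and 5.82% of 11914 genes, with medians of 0.04 for the members and 0.03 for all genes. The members were chosen with this contrast known, and nothing is read from these shares.

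**Figure D1:**
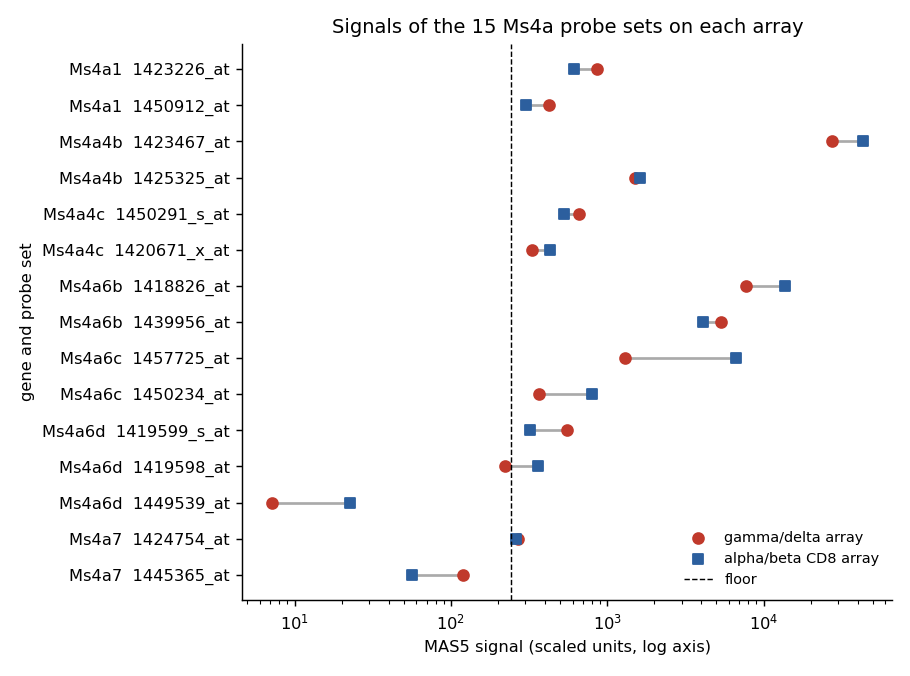
Signal of each of the 15 Ms4a probe sets (rows) in gamma/delta cells (circles) and alpha/beta CD8 cells (squares), in scaled MAS5 units on a log axis, with the floor of 243 as a dashed line. The widest gap above the floor is that of Ms4a6c 1457725_at, at 1309 against 6648, and the third Ms4a6d and second Ms4a7 probe sets lie left of the floor on both arrays.

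Ms4a4b, the T cell member, had high signals in both cell types. Its brighter probe set (1423467_at) read 27373 in γδ and 43230 in αβ CD8 cells, a log2 ratio of -0.66 or 1.58-fold lower. The other (1425325_at) read 1499 in γδ and 1626 in αβ CD8 cells, a log2 ratio of -0.12. Both lay below 0 and neither reached 2-fold. The 3 genes nearest to it in the same sense were Msn, which encodes the cytoskeletal linker moesin (distance 0.08), and the ribosomal protein genes Rpl4 and Rps3 (0.12 each). Tnfrsf18, which encodes GITR, read 548 in γδ cells and 213, under the floor, in αβ CD8 cells. It was thus at least 2.25-fold higher in γδ cells, on a single probe set whose name ends in _a_at, and it was not called with the floor at the 70th percentile.

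Ms4a6b, known from T cells as Ms4a4b is, and the neighbour of Ms4a6c whose promoter shares the run of 48 bases, was read in opposite directions by its probe sets. One (1418826_at) had a signal of 7743 in γδ cells and 13767 in αβ CD8 cells, a log2 ratio of -0.83. The other (1439956_at) had 5328 in γδ and 4127 in αβ CD8 cells, a log2 ratio of 0.37. Both signals are well above the floor on both arrays, and the ratios, 1.20 apart, have opposite signs, so no direction can be given for Ms4a6b.

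Ms4a4c is read by 2 probe sets that also disagree in sign, and neither is unique by its name. In Affymetrix naming the ending _s_at marks probes that match several transcripts and _x_at marks probes that may cross-hybridise, and Ms4a4c has one of each. The first (1450291_s_at) read 658 in γδ and 527 in αβ CD8 cells, a log2 ratio of 0.32. The second (1420671_x_at) read 331 in γδ and 428 in αβ CD8 cells, a log2 ratio of -0.37. How much of either signal comes from a similar gene such as Ms4a4b was not tested.

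Ms4a6d and Ms4a7, which are known from mouse macrophages and related myeloid cells, had signals near or under the floor. For Ms4a6d, 1419599_s_at read 551 in γδ and 323 in αβ CD8 cells, a log2 ratio of 0.77. Its 1419598_at read 224, under the floor, in γδ cells and 358 in αβ CD8 cells, at least 1.47-fold lower in γδ cells. The third probe set, 1449539_at, read 7.16 in γδ and 22.6 in αβ CD8 cells and gives no ratio, so that the gene has no settled direction. Ms4a7 read 268 in γδ and 260 in αβ CD8 cells on 1424754_at, a log2 ratio of 0.04, and its 1445365_at read 119 in γδ and 56.3 in αβ CD8 cells, under the floor on both arrays.

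Ms4a1, the B cell member that serves as contrast, was the member whose probe sets differed least. It read 858 in γδ and 616 in αβ CD8 cells on 1423226_at, and 423 in γδ and 303 in αβ CD8 cells on 1450912_at. Both log2 ratios were 0.48, which is 1.39-fold to 1.40-fold higher in γδ cells and short of 2-fold. Per the platform annotation both probe sets were designed from one sequence record, so their closeness is not that of separate measurements.

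Of the 7 members, 6 had at least 2 probe sets with a ratio. These had one sign in 3 genes, Ms4a1, Ms4a4b and Ms4a6c, and opposite signs in the other 3, Ms4a4c, Ms4a6b and Ms4a6d. For Ms4a6d the ratio below 0 is a bound. The same share over all genes was not computed, and nothing is read from this count.

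**Figure D2:**
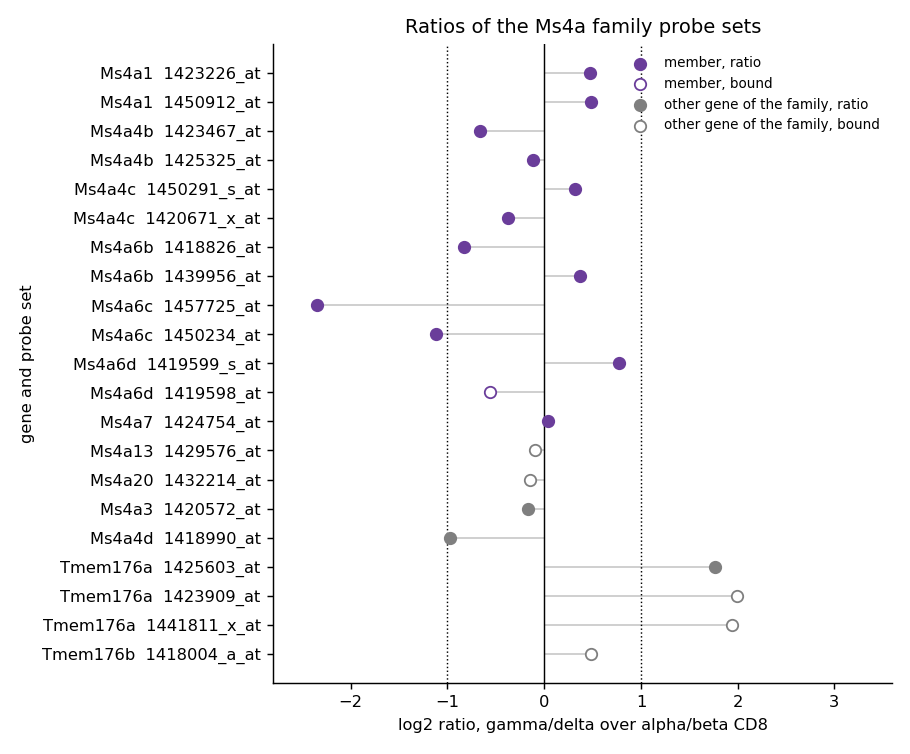
Log2 ratio, gamma/delta over alpha/beta CD8, for each probe set with a ratio, for the members and the other measured genes of the family, with open circles for bounds and dotted lines at 2-fold. Both Ms4a6c points lie left of the lower line, Ms4a4d lies just inside it at -0.98, and the 3 Tmem176a points lie beyond the upper line.

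**Figure D3:**
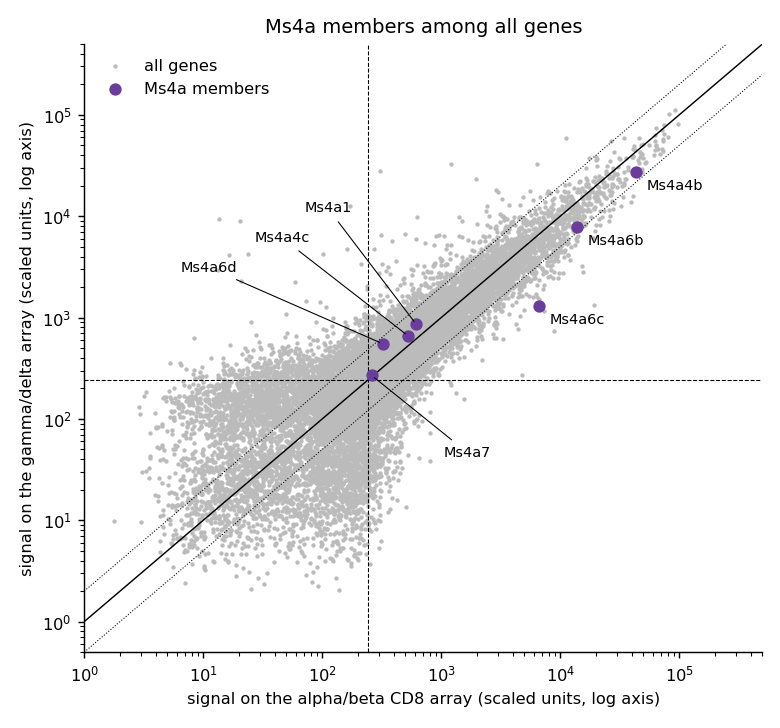
Signal in gamma/delta cells (y axis) against alpha/beta CD8 cells (x axis) for each of 18193 genes by its brightest probe set, on log axes in scaled units, with the diagonal (solid), 2-fold (dotted) and the floor of 243 on each axis (dashed). Ms4a6c lies below the lower 2-fold line, Ms4a4b and Ms4a6b lie between that line and the diagonal, and Ms4a1, Ms4a4c, Ms4a6d and Ms4a7 lie close to or above the diagonal.

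The other Ms4a genes on the array were mostly under the floor. Of 10 measured, 6 were under it on both arrays, among them Ms4a2 (162 in γδ and 236 in αβ CD8 cells), and 4 had a ratio, all of them below 0 and none at 2-fold. The nearest to 2-fold was Ms4a4d, with 334 in γδ and 658 in αβ CD8 cells (log2 ratio -0.98). Ms4a3, known from myeloid progenitors, read 277 in γδ and 312 in αβ CD8 cells (-0.17), with Ms4a13 (133 and 260) and Ms4a20 (160 and 269) under the floor in γδ cells and just above it in αβ CD8 cells. Ms4a8a, Ms4a10, Ms4a15, Ms4a18 and Ms4a19 were under the floor on both arrays. Over all 11914 genes with a ratio, 5666 had a log2 ratio below 0 and 3.93% were at least 2-fold lower in γδ cells.

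Tmem176a and Tmem176b encode membrane proteins related in structure to the Ms4a family. All 3 probe sets of Tmem176a were higher in γδ cells. The brightest read 2793 in γδ and 820 in αβ CD8 cells, and the others gave bounds of 3.99-fold and 3.84-fold. Tmem176b read 340 in γδ and 27.0 in αβ CD8 cells, at least 1.40-fold higher.

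Along chromosome 19, RefSeq places 21 Ms4a genes in one cluster, of which 17 were measured, with 3 other measured genes between them. The longest stretch of neighbouring measured genes with a log2 ratio below 0 was 5 genes long, from Ms4a4b through Ms4a6c, Gm8369 and Ms4a6b to Ms4a4d, with log2 ratios from -2.34 to -0.56. This stretch was picked out after its values were seen, and it takes Ms4a6b by its brighter probe set, the other being above 0. Gm8369 lies between Ms4a6c and Ms4a6b and read 474 in γδ and 698 in αβ CD8 cells. Of the 23 measured genes of other families within the cluster and beyond its ends, 15 had a ratio, 9 of them above 0 and 6 below, with a median log2 ratio of 0.48. Of these, AW112010, inside the cluster, was 2.10-fold higher in γδ cells (6190 against 2946 in αβ CD8 cells) and Stx3, a syntaxin gene beyond its end, was 2.04-fold higher (504 against 247 in αβ CD8 cells), and none was 2-fold lower. Raising the floor to the 70th percentile left 1 at 2-fold higher, and a floor at the 30th percentile gave 1 at 2-fold lower. The other bright neighbours, Osbp (-0.22), Prpf19 (0.38) and Patl1 (-0.35), had log2 ratios short of 2-fold. Over all 11914 genes with a ratio the median log2 ratio was 0.03. Of these genes, 5.82% were at least 2-fold higher in γδ cells and 3.93% at least 2-fold lower. Nothing is read from the counts of the neighbours.

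**Figure D4:**
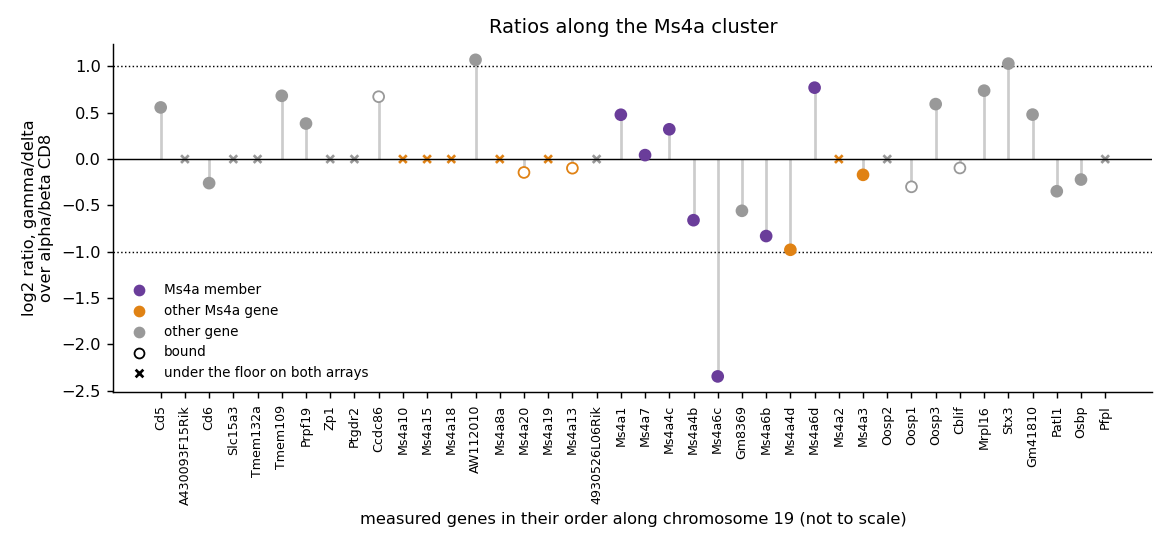
Log2 ratio, gamma/delta over alpha/beta CD8, for the measured genes of the Ms4a cluster and the 10 nearest measured genes on each side. Genes are in their order along chromosome 19 and not to scale. Open circles mark bounds and crosses mark genes under the floor on both arrays. The stretch from Ms4a4b to Ms4a4d lies below 0, with Ms4a6c lowest at -2.34.

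Genes whose proteins were linked to Ms4a proteins had ratios on both sides of 0. Of 8 measured, 5 had a ratio, all of them bounds. Tnfrsf18 was the 1 at least 2-fold higher in γδ cells. Stim1, the calcium sensor of the endoplasmic reticulum, was the 1 at least 2-fold lower, with 135 in γδ and 491 in αβ CD8 cells (at least 2.02-fold). These counts depend on the floor. With it at the 30th percentile 4 partner genes were lower, and at the 70th percentile 0 were lower and 0 higher. With probe sets averaged 0 were lower, and without _x_at, _s_at and _a_at probe sets 0 were higher. Cd40, Fcer1g and Orai1 were above the floor in αβ CD8 cells only, and Clec7a, Fcer1a and Trem2 were under it on both arrays.

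Markers of other cells that express Ms4a genes were looked at beside the members. For comparison with each marker list, the median log2 ratio over all 11914 genes with a ratio was 0.03. Of all these genes, 5.82% were at least 2-fold higher in γδ cells and 3.93% at least 2-fold lower. Nothing is read from the counts of the lists. Of 18 measured B cell markers, 12 had a ratio on their brightest probe set, with 8 above 0 and 4 below and a median log2 ratio of 0.20. The brightest, Ebf1, a factor of early B cells, read 3331 in γδ and 2650 in αβ CD8 cells on its brightest probe set. Other probe sets of Ebf1 had log2 ratios of 0.21, 0.01 and -0.20, or were under the floor on both arrays. Cr2, complement receptor 2, read 520 in γδ and 436 in αβ CD8 cells. Ighm, the IgM heavy chain, read 1025 in γδ and 789 in αβ CD8 cells on its brightest probe set (1.30-fold higher). Another, an _s_at, read 1300.0 in γδ and 563 in αβ CD8 cells (2.31-fold higher). An _x_at probe set of Ighm went the other way, with 333 in γδ and 406 in αβ CD8 cells (log2 ratio -0.28). The remaining Ighm probe sets were under the floor on both arrays. Ebf1 and Cr2 were short of 2-fold, while Ly6d had a ratio below 0, with 290 in γδ and 497 in αβ CD8 cells. Pou2af1, a B cell coactivator, was the 1 marker past 2-fold by the brightest probe set of each gene, at 1412 in γδ and 489 in αβ CD8 cells. The signals of the list summed to 9424.5 in γδ and 7982 in αβ CD8 cells. The defining genes Cd79a, Cd22 and Pax5 were under the floor on both arrays, and Cd79b read 254 in γδ and 188 in αβ CD8 cells. The ratio of Ms4a1 lies within the range of these markers, -0.78 to 1.53. This range is wide, and Ms4a4b, Ms4a4c, Ms4a6d and Ms4a7 lie in it too by their brightest probe sets. No likeness of Ms4a1 to B cell markers is read from it. The part of B cell RNA in the ratio of Ms4a1 was not tested.

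Of 16 myeloid markers, 9 were under the floor on both arrays, among them Lyz2, Csf1r, Cd14, Cd68, C1qa and Tyrobp, and 7 had a ratio, with 3 above 0 and 4 below and a median of -0.23. Ly86 was the 1 marker past 2-fold, at 982 in γδ and 379 in αβ CD8 cells. The summed signals were 2943 in γδ and 2785 in αβ CD8 cells. Spi1, the myeloid and B cell factor PU.1, read 12.0 in γδ and 359 in αβ CD8 cells, at least 1.47-fold lower in γδ cells.

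Of 6 mast cell and basophil markers, 4 were under the floor on both arrays and the 2 with a ratio, Cpa3 and Mcpt8, were below 0 and short of 2-fold. Of 5 NK cell markers, 3 were under it on both arrays and 0 reached 2-fold. Of 5 markers of regulatory T cells, in which Ms4a4b is also known, Foxp3 and Il10 were under the floor on both arrays and Ikzf2 was the 1 past 2-fold, at 4030 in γδ and 1756 in αβ CD8 cells on its brightest probe set. Its other probe sets had log2 ratios of 0.06 and 0.47, and 0 of the 5 passed 2-fold with probe sets averaged.

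**Figure D5:**
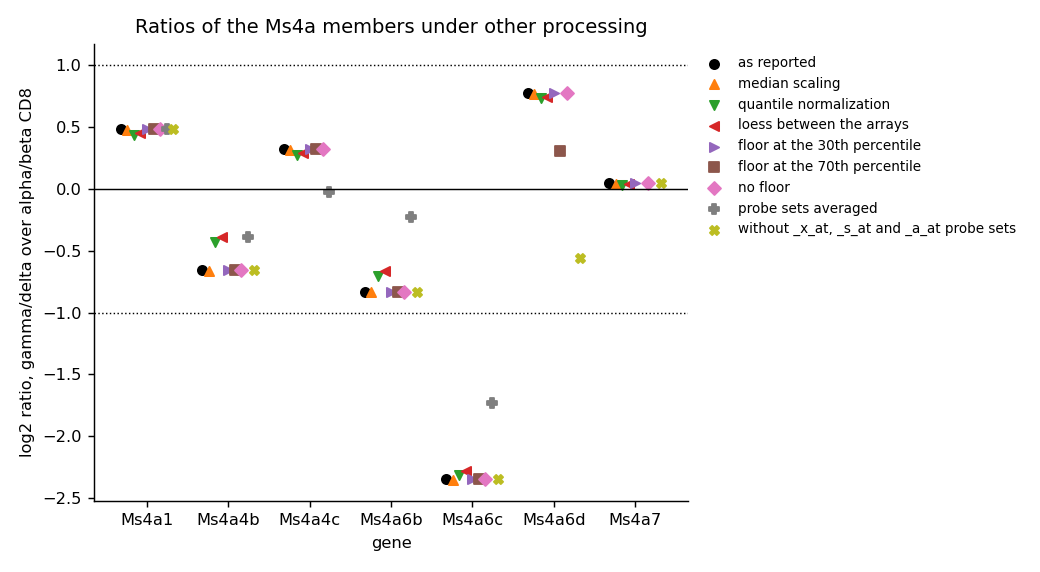
Log2 ratio, gamma/delta over alpha/beta CD8, for each member gene as reported (black circles) and under 8 other ways of processing the same signals, with dotted lines at 2-fold. Ms4a6c stays below the lower line under all of those shown, from -2.35 to -1.73, while Ms4a4c and Ms4a6d lie on both sides of 0.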

How the data were processed

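RNA of 1 gamma/delta and 1 alpha/beta CD8 T cell preparation was hybridised to MOE430 2.0 arrays. The deposited values are linear MAS5 intensities, 1 per probe set and array, and per the submitters' processing notes the authors computed them in Affymetrix Expression Console 1.0. The trimmed mean (2% left out at each end) was 500.003 on both arrays, so both had been scaled to one target. MAS5 subtracts a mismatch estimate, which spreads low signals widely.

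Of 45101 probe sets, 34945 had 1 gene symbol in the platform annotation and were not controls. The gene identifiers of all 7 members matched their symbols in RefSeq (GRCm38.p6). Values were used as deposited, with the floor, the ratio and the 2-fold call described above. The brightest probe set, by mean log2 signal, stood for its gene. Python 3.11.15, pandas 2.3.3, statsmodels 0.14.6 and biopython 1.88 were used. The precision is limited by the number of arrays.

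Members, gene lists, promoters and motifs were chosen with earlier results of these data known. Named genes were all members and other family genes, list genes past 2-fold and up to 4 per list with the highest signal, and the nearest genes by signal to 2 members. List genes named beyond these, such as those under the floor, were picked with their values in view. The lists were partner genes, locus neighbours and markers of B, myeloid, mast, NK, regulatory, gamma/delta, CD8 and all T cells. The alternatives were 3 normalizations, 3 floors, 2 call thresholds and other choices of probe sets. An interferon-type motif searched at first, without a match in the members' promoters, was left out. A planned protein comparison was not made.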

Additional observations from a re-analysis of the deposited data

How the results depend on the processing

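After median scaling, quantile normalization, loess and a floor at the 30th percentile, 2 Ms4a probe sets were lower and 0 higher, as reported. With the floor at the 70th percentile 1 was lower, because 1450234_at of Ms4a6c had a bound of -0.84. At that floor 1419598_at of Ms4a6d, 1424754_at of Ms4a7, 1420671_x_at of Ms4a4c and 1450912_at of Ms4a1 had no ratio. With no floor 3 were lower and 1 was higher, the added ones being the dimmest probe sets of Ms4a6d and Ms4a7. At 1.5-fold 4 were lower and 1 was higher, and at 4-fold 1 was lower. With probe sets averaged Ms4a6c had a log2 ratio of -1.73, Ms4a6b one of -0.23 and Ms4a4c one of -0.03, and Ms4a6d and Ms4a7 fell under the floor. With those of the endings _x_at, _s_at and _a_at left out, Ms4a6d had a bound of -0.56, Ms4a4c had no probe set and the median over member genes was -0.61. Ms4a4d passed 2-fold after quantile normalization and loess. No probe set carried a member symbol among several, so adding those changed nothing. Having 1 array per group limits every ratio here. Signals near the floor limit the ratios of Ms4a6d, Ms4a7, the partner genes and the dimmer probe sets of Ms4a1, Ms4a4c and Ms4a6c.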
